A study of Schizosaccharomyces pombe with 3 samples.

Results

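The genes described here are 40 fission yeast genes for DNA-binding transcription factors, given as a named list and matched to the array's feature names by symbol, synonym or systematic name, and 39 of them had at least 1 feature on the array. Their features numbered 75 of the 10213 named genomic features, of which 36 were intergenic features lying upstream of a member and 39 were coding features. In Schizosaccharomyces pombe, Ssn6 works together with the Tup11 and Tup12 proteins as a corepressor. The only group was a strain with Ssn6 tagged by green fluorescent protein (Ssn6-GFP), harvested from YES, a rich medium, in the middle of logarithmic growth, and each of the 3 arrays set chromatin precipitated with an antibody against the tag against its input chromatin. All 3 arrays carry the same tagged strain, and no untagged strain was analysed here. The arrays are called replicates 1, 2 and 3, which are slides 1, 10 and 2 by their labels. The labels speak of separate experiments but do not say which one each array holds, so p-values measure the spread between arrays.

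Corepressors of the Ssn6-Tup1 family do not bind DNA themselves. They are brought to promoters by sequence-specific factors and lower transcription there. The factors coded by these genes carry zinc finger, zinc cluster, GATA, homeodomain, forkhead, MADS, HMG or bZIP domains and control mating and meiosis, the cell cycle, nutrient use, sterol and calcium responses and cell adhesion in this yeast. The data show where Ssn6 was measured beside the genes of these regulators, not where the regulators bind.

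The log2 ratio used here has the likely immunoprecipitate over the likely input, which is channel B over channel A on replicates 1 and 3 and channel A over channel B on replicate 2. This direction was not settled. The labels put input in Cy3 and immunoprecipitate in Cy5 and state that dyes were not swapped. The scanner columns are called only A and B, with no dye, and B over A on replicate 2 correlated at -0.48 and -0.54 with replicates 1 and 3 over 3960 features. The 95th percentile of negative-control spots was higher in channel B on all 3 arrays. It was 1959, 1026 and 4452 units on replicates 1, 2 and 3, against 0, 223 and 0 in channel A. The authors' deposited values tracked channel B on replicates 1 and 3 (r = 0.998 and 0.999 over spots) and channel A on replicate 2 (r = 0.949). With the other channel r was 0.071 and 0.033 on replicates 1 and 3 and 0.668 on replicate 2. The deposited values thus follow the level of 1 channel, less closely on replicate 2, and are not a ratio. Values from the unturned arrays, with B over A throughout, are therefore given beside the main ones, and the sign of all ratios could also be turned as a whole. Ratios were centred on the median of each array, so a value of 0 is the middle of that array. Feature spots with signal in both channels made up 49.0%, 95.5% and 37.7% on replicates 1, 2 and 3.

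The promoters of the 3 members with an enriched upstream feature are shown first, because they had the highest means among the upstream features measured on all 3 arrays. Each line gives the 250 bases before the annotated transcript start, 5′ to 3′ on the gene's strand, from RefSeq assembly ASM294v3: rsv2 at chrII:3532678-3532927 on the plus strand, toe1 at chrI:1838226-1838475 on the plus strand and sak1 at chrI:3149720-3149969 on the minus strand. Capitals mark matches, on either strand, to the motifs described below. The files give no position for the array's probes, so these bases need not be the ones spotted.
rsv2: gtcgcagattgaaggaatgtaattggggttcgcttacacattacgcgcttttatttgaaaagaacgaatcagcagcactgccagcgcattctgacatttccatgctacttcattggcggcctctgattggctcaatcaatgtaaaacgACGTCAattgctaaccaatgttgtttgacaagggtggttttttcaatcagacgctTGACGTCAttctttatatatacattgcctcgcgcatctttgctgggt
toe1: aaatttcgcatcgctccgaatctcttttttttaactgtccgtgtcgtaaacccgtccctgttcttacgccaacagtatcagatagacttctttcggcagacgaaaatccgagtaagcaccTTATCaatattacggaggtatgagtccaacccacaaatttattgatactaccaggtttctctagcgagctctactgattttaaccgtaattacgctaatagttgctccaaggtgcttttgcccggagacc
sak1: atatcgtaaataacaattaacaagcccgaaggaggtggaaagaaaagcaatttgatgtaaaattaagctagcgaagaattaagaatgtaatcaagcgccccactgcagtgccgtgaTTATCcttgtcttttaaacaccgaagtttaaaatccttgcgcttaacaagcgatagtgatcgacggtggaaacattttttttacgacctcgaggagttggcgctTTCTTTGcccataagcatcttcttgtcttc
The rsv2 window held 3 matches to TGACGT, the core of the cAMP response element (CRE) read by ATF/CREB factors. They start 102, 47 and 45 bases before the transcript start, and the last pair overlap as the palindrome TGACGTCA. The toe1 window held 1 match to GATAA, the core read by GATA factors, at 130 bases. In the sak1 window GATAA matched at 134 bases and TTCTTTG, the core of the TR box read by Ste11, at 30 bases. Noncoding RNAs are annotated across the toe1 and sak1 windows, and no other transcript across that of rsv2.

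Upstream of the factor genes, the ratio in the direction used here was raised at rsv2, toe1 and sak1. Rsv2 is a zinc finger factor of meiotic and spore gene expression, Toe1 is a zinc cluster factor, and Sak1 is an essential RFX-family protein that acts downstream of the cAMP-dependent kinase. Of the 11 upstream features measured on all 3 arrays, limma called 3 enriched and 0 depleted (adjusted p under 0.05), against 19.7% of the 1327 intergenic features enriched and 0.904% depleted. The members' share of 27.3% lies near that background. Over all 3960 features 8.26% were enriched and 5.61% depleted. At an unadjusted p under 0.05, 4 were higher and 0 lower, against 32.0% of intergenic features higher. The median of the 11 means was 0.38 on the log2 scale, against 0.36 over all intergenic features measured on all arrays. Positive values on all 3 arrays were seen for 5 of the 11, against 48.0% of intergenic features, and negative values on all 3 for 1, deb1, against 9.95%. On the unturned arrays limma called 0 of the 11, with 0 at an unadjusted p under 0.05, and their means lay between -0.48 and 0.47. That orientation called 0 of all 3960 features (0.0%), with 138 at an unadjusted p under 0.05.

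**Figure D1:**
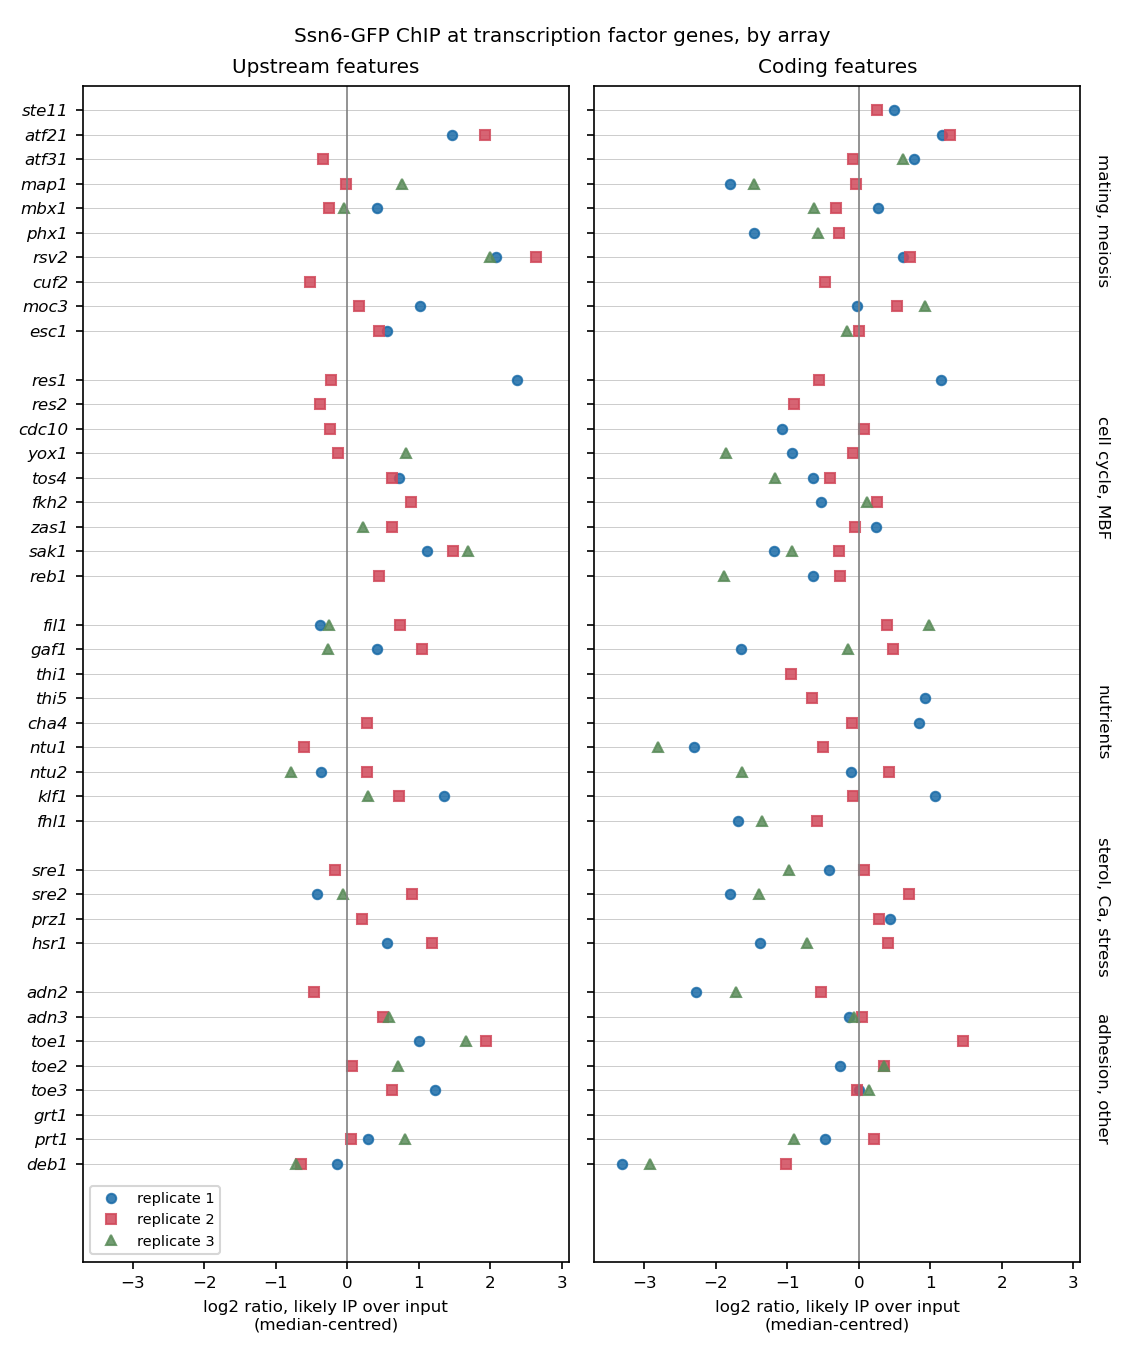
Log2 ratio of the likely immunoprecipitate (IP) over input on each array for the upstream (left) and coding (right) features of the 40 genes, grouped by role, with 1 point per array. The upstream features of rsv2, toe1 and sak1 lie above 0 on every array, and the coding features of deb1, ntu1, adn2 and fhl1 below 0 on every array. Rows with fewer than 3 points lack a ratio on the other arrays.

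The rsv2 upstream feature had log2 ratios of 2.07, 2.64 and 1.99 on replicates 1, 2 and 3. All 3 arrays lay close together, with a mean of 2.24 ± 0.35 (SD, n = 3), a 4.71-fold ratio, and a limma adjusted p of 0.00169. It ranked 44 of 1327 intergenic features. The mean pixel intensity of the same spots, whose ratios come from integrated intensity, was 4027, 14863 and 9964 units in the likely immunoprecipitate, against 531, 2769 and 1642 units in the likely input. On every array the immunoprecipitate exceeded the 95th percentile of 1624 negative-control spots, which was 1959, 223 and 4452 units and is called the control limit. On replicate 2 this limit separates few features, since the ntu1 upstream feature passed it with 566.5 units, at the 2.42th percentile of immunoprecipitate signal. The feature of the divergent neighbour SPBC1105.13c, which lies across the same gap of 742 bases in RefSeq, gave 1.25, 2.27 and 1.74, also above 0 on every array (adjusted p = 0.00666). The rsv2 feature passed without any 1 replicate. Unturned, its mean was 0.47 (adjusted p = 0.930).

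The toe1 upstream feature, in the gap that follows the uracil-regulated gene urg1 on the same strand, had 1.00, 1.93 and 1.66. Its mean was 1.53 ± 0.48 (SD, n = 3), a 2.88-fold ratio, with a limma adjusted p of 0.0122. Its immunoprecipitate signal of 2563, 6059 and 4476 units stood against 723, 1764 and 928 units of input and lay above the control limit on all 3 arrays. On replicate 3 it came from 1 spot and passed narrowly, at 4476 against 4452 units. The sak1 upstream feature had 1.11, 1.48 and 1.68, with a mean of 1.43 ± 0.29 (SD, n = 3) or 2.69-fold and a limma adjusted p of 0.0129. There the immunoprecipitate gave 2484, 4540 and 4333 units, against 638, 1895 and 892 units of input, from 1 spot on replicate 1, and did not exceed the control limit on replicate 3. Across the sak1 gap, the feature of the divergent neighbour msw1 gave 1.01, 0.62 and 0.65 and did not pass (adjusted p = 0.104). Both calls ended without replicate 3, where limma gave adjusted p of 0.0880 for toe1 and 0.123 for sak1. Unturned, the means were 0.24 and 0.44 (adjusted p = 0.946 and 0.910), and with local background subtracted sak1 stood at 1.96 and did not pass (adjusted p = 0.0652), while toe1 had no value on all arrays. With spots in the lowest 10% of the input channel left out, toe1 again had no value on all arrays and sak1 was called.

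The other 8 upstream features measured on all arrays did not pass, with means between -0.50 and 0.79 and limma adjusted p of 0.119 or more. The highest was klf1, a Krüppel-like factor needed in quiescence, at 1.35, 0.73 and 0.29 on replicates 1, 2 and 3. All 3 values lay above 0 but spread widely, with a mean of 0.79 ± 0.53 (SD, n = 3, limma adjusted p = 0.119). The feature of SPAC1039.06, across the same divergent gap of 1171 bases, gave 0.45, 1.49 and 1.28 and was enriched (limma adjusted p = 0.0490). Upstream of gaf1, a GATA factor held in check by TOR signalling, the values were 0.41, 1.04 and -0.26, and upstream of fil1, a factor of the amino acid starvation response, they were -0.38, 0.74 and -0.25. Both features changed sign between arrays. Upstream of deb1 the values were -0.14, -0.65 and -0.72, the lowest mean of the 11 at -0.50 ± 0.32 (SD, n = 3). Neighbours across a divergent gap did not always share the member's value: sre2, for a sterol regulatory element-binding protein, gave -0.42, 0.90 and -0.06, whereas the mrps16 feature facing it gave 0.39, 1.84 and 1.48 (adjusted p = 0.0408). The feature of mug4, which faces fil1, gave -1.88, -0.69 and -1.67 (adjusted p = 0.0206).

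Many upstream features were not measured on every array. Of the 36, 12 had a ratio on 2 arrays, 11 on replicate 2 alone and 2, those of fhl1 and thi1, on none. On replicate 1, 18 lacked a ratio, 11 of which had immunoprecipitate signal in a spot without input signal, and on replicate 3 it was 14 of 20. An absent ratio therefore gives no measure of Ssn6 at that feature. The upstream features of ste11, the master regulator of mating, of the homeobox gene phx1 and of the thiamine regulator gene thi5 are named missing on the array, and no feature was matched for grt1.

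Among the upstream features on 2 arrays, atf21 stood highest. Atf21 is a bZIP protein of the ATF/CREB family that acts in meiosis. Its upstream feature had 1.46 on replicate 1, from 1 spot with input at the 13.5th percentile, and 1.92 on replicate 2. The atf21 coding feature had 1.16 and 1.28 on replicates 1 and 2, so both sides of the gene lay above 0. The feature of mrpl35, across the same divergent gap, had 2.35 and 1.99 on these arrays. When features on 2 or more arrays were tested, the atf21 upstream feature was also enriched (limma adjusted p = 0.0227), and its coding feature did not pass (limma adjusted p = 0.0782). In that fit 4 of 23 member upstream features passed, against 13.7% of intergenic features. The 12 member upstream features on exactly 2 arrays all had a mean above 0, between 0.35 and 1.69, against 86.1% of such intergenic features. In 9 of the 12 both arrays had the same sign, against 63.6%. The feature of res1, a subunit of the MBF complex, differed most, at 2.37 on replicate 1 and -0.23 on replicate 2. The 2.37 came from 1 spot with input at the 7.02th percentile. On replicate 2 alone the 34 member values had a median of 0.27 and 22 were positive, against a median of 0.07 and 55.3% of all intergenic features. With replicate 2 unturned, 12 of the 34 were positive and the median was -0.27.

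By role, the enriched features were spread over 3 groups. Among the genes of sexual differentiation and meiosis, 1 of 2 features measured on all arrays was enriched (rsv2), and on replicate 2 4 of 8 were positive, with a median of 0.07. The cell cycle group, with the MBF genes, had 1 such feature (sak1). Its replicate 2 values had a median of 0.44 and 5 of 9 were positive, with those of res1, res2, cdc10 and yox1 below 0 (-0.23, -0.39, -0.24 and -0.13). Res1 had 2.37 on replicate 1 and yox1 0.82 on replicate 3, whereas res2 and cdc10 had no other ratio. The tos4 upstream feature had 0.72 and 0.63 on replicates 1 and 2. Cdc10, Res1 and Res2 form MBF, the activator of G1 to S genes, and Yox1 is its repressor. The nutrient group had 0 of 4 enriched, with means from -0.30 to 0.79, and the sterol, calcium and oxidative stress group 0 of 1. In the group of adhesion and less studied genes 1 of 3 was enriched (toe1), while on replicate 2 toe2 had 0.06 and toe3 0.62. With 1 to 4 measured features a group, these counts do not order the roles.

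Fkh2, a forkhead factor, and ntu1 are both members and share a divergent gap of 1337 bases in RefSeq. Their upstream features had a ratio on replicate 2 alone, at 0.90 for fkh2 and -0.61 for ntu1. The values lie on opposite sides of 0 within 1 gap. With 1 array there is no replicate check of this difference. Input on that array was dim, at 1105.5 units for fkh2 and 977 units for ntu1, the 5.85th and 2.79th percentiles. The 95th percentile of negative-control spots in the likely input channel was 1026 units there.

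Of the 23 coding features of the factor genes measured on all arrays, limma called 0 enriched and 4 depleted, those of deb1, ntu1, adn2 and fhl1, against 2.41% and 7.92% of the 2612 coding features. At an unadjusted p under 0.05, 0 were higher and 10 lower, against 23.7% of coding features lower. The median of the 23 means was -0.57, against -0.28 over all coding features, and 10 of the 23 lay below 0 on all 3 arrays, against 34.9%. Values above 0 on all arrays were seen for 0 of the 23, against 12.9%. On replicate 2, 18 of 39 were positive, against 43.3%, and unturned 21 of 39. On the unturned arrays limma called 0 of the 23, with 1 lower at an unadjusted p under 0.05.

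**Figure D2:**
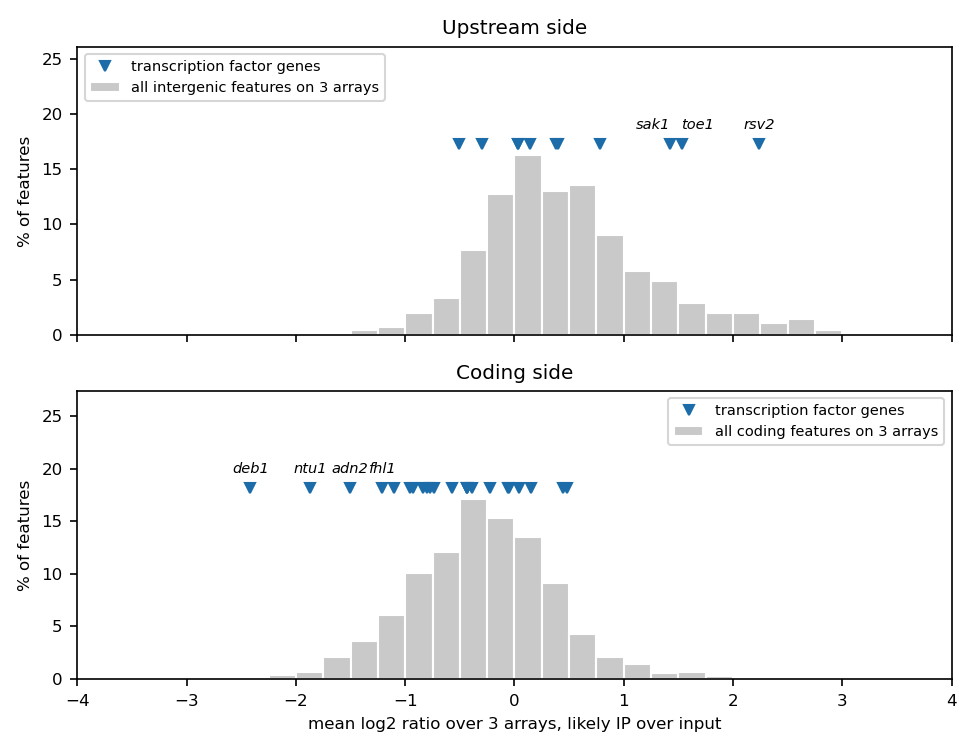
Share of all intergenic (top) and coding (bottom) features by mean log2 ratio over 3 arrays, in grey bars of width 0.25, with the transcription factor features measured on all 3 arrays as triangles and the called ones named. The upstream triangles span -0.50 to 2.24 and the coding ones -2.42 to 0.48.

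The deb1 coding feature, printed on the array under the older name rdp1, had log2 ratios of -3.31, -1.02 and -2.92. Every array lay below 0 and replicate 2 was the least low, with a mean of -2.42 ± 1.23 (SD, n = 3) and a limma adjusted p of 0.00616, at rank 2611 of 2612. The gene now called rdp1 has features of its own, so this name was read as deb1. Its immunoprecipitate signal was 1565, 13656 and 2625 units, against 8811, 31874 and 12696 units of input, which lay at the 99.6th, 99.9th and 98.8th percentiles of input on the 3 arrays. The ntu1 coding feature had -2.30, -0.49 and -2.81, a mean of -1.87 ± 1.22 (SD, n = 3, limma adjusted p = 0.0186), with input at the 99.3th, 99.8th and 99.5th percentiles. The adn2 coding feature, of a gene whose loss impairs adhesion, had -2.27, -0.52 and -1.72, a mean of -1.51 ± 0.90 (limma adjusted p = 0.0254), and input at the 97.1th, 97.1th and 88.6th percentiles. For fhl1, which encodes a forkhead-like factor, the values were -1.70, -0.59 and -1.35, with a mean of -1.21 ± 0.57 (limma adjusted p = 0.0348) and input at the 88.8th, 88.5th and 81.3th percentiles. All 4 features lay lowest on replicates 1 and 3 and nearest 0 on replicate 2.

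Input, the denominator of the ratio, lay at the 81.3th percentile or higher on every array at these 4 coding features, and at the 99.1th, 96.0th and 93.6th for reb1, which was not called. At the enriched upstream features it lay lower, at the 16.4th, 47.6th and 45.0th percentiles for rsv2 and the 26.7th, 28.5th and 8.97th for sak1. Across the 23 member coding features the mean ratio and the mean input percentile correlated at -0.84, and across the 11 upstream ones at -0.82, against -0.68 and -0.54 over all coding and intergenic features. Points share the arrays and the input signal itself, so these are descriptions, and the part of input brightness in the calls was not tested. Immunoprecipitate signal at 0 of the 23 coding features lay above the control limit on all 3 arrays. The same count over all coding features is not given here. On replicate 3 the limit was 4452 units, and 4403 units already lay at the 82.2th percentile of immunoprecipitate signal. The count is therefore no result about the members. With intergenic and coding features centred separately fhl1 did not pass (limma adjusted p = 0.0595). Without replicate 1 limma called 2 of the 4 depleted (ntu1 and deb1), without replicate 3 only deb1, and without replicate 2 it called 8 coding features, these 4 among them. The members tested numbered 25, 33 and 23 in these fits. The shares of all coding features called there are not given here, so a general change in calls cannot be told apart. With local background subtracted deb1 was called (adjusted p = 0.0486), while ntu1, adn2 and fhl1 did not pass at means between -2.19 and -1.81, each farther from 0 than without subtraction.

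**Figure D3:**
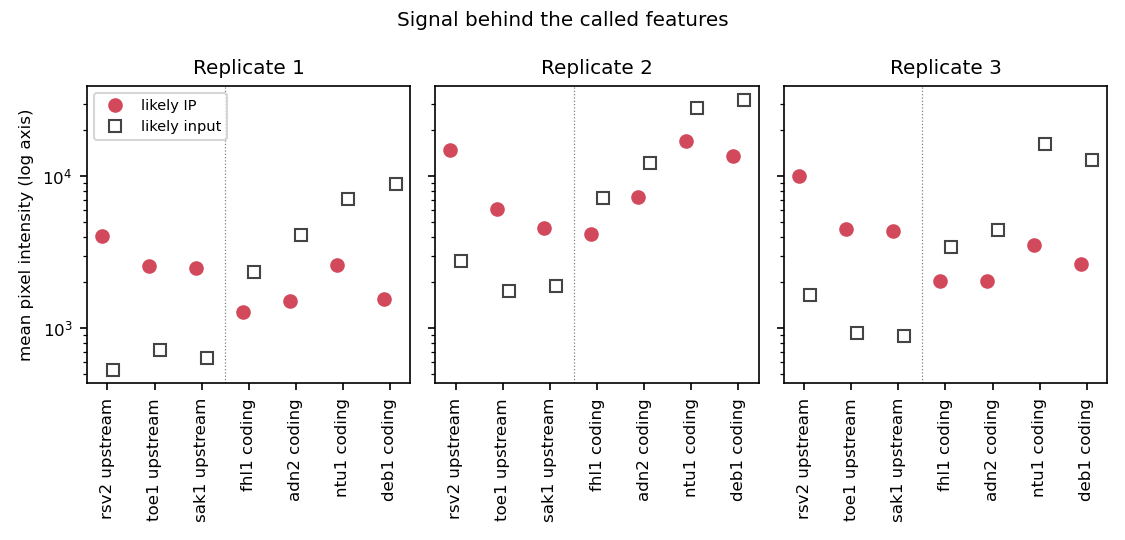
Mean pixel intensity, on a log axis, of the likely immunoprecipitate (filled circles) and likely input (open squares) on each array for the 3 enriched upstream features (left of the dotted line) and the 4 depleted coding features. Immunoprecipitate exceeds input at each enriched feature and input exceeds immunoprecipitate at each depleted one, on every array.

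Among coding features that did not pass, map1, a MADS-box factor of the P mating type, was the lowest, at -1.80, -0.04 and -1.47, with a mean of -1.10 ± 0.93 (SD, n = 3, limma adjusted p = 0.0751). The highest was moc3, a zinc cluster gene of sexual development, at -0.02, 0.54 and 0.92, with a mean of 0.48 ± 0.48 (SD, n = 3, limma adjusted p = 0.319). Of the coding features on fewer arrays, 12 had 2 and 4 had 1, and their means lay between -0.95 for thi1, which encodes the thiamine regulator, and 1.46 for toe1, both from replicate 2 alone. Of the 12 on exactly 2 arrays 10 had a mean above 0, against 67.2% of such coding features, and 5 had the same sign on both, against 52.3%. The ste11 coding feature had 0.49 and 0.25 on replicates 1 and 2.

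The upstream feature was set against the coding feature of the same gene. For 7 genes both were measured on all 3 arrays. Sak1 differed most, with its upstream feature above its coding feature by 2.29, 1.76 and 2.62 on replicates 1, 2 and 3, a mean of 2.22 ± 0.43 (SD, n = 3). For deb1 the difference was 3.17, 0.37 and 2.20, and neither feature had a mean above 0. For ntu2 it was -0.26, -0.16 and 0.84, with no shared sign. In 4 of the 7 genes (sak1, deb1, sre2 and mbx1) the upstream feature was higher on all arrays, against 49.7% of 640 genes. Averaged over the 7 genes the difference was 1.36, 0.37 and 1.31, a mean of 1.02 ± 0.56 (SD, n = 3 arrays), with a two-sided exact sign-flip permutation p of 0.25, the smallest that 3 arrays allow. Over the 640 genes it averaged 0.68 ± 0.24 (SD, n = 3 arrays). On the unturned arrays the mean over the 7 genes was 0.77, and with intergenic and coding features centred separately it was 0.44.

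**Figure D4:**
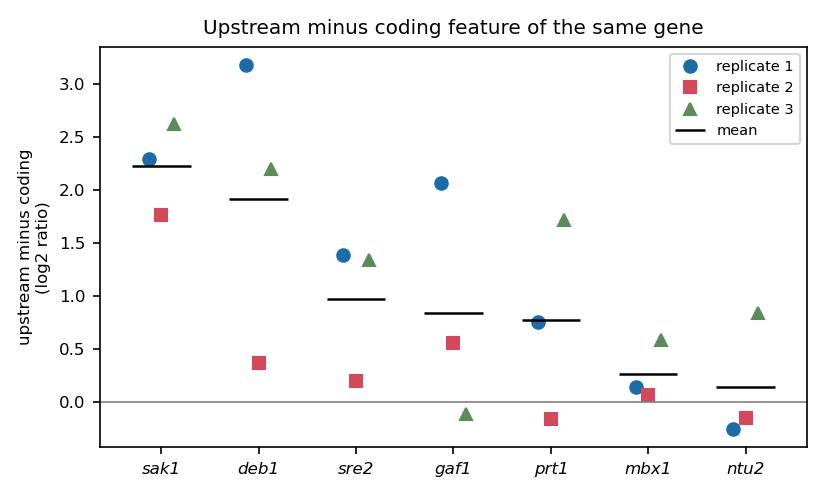
Upstream minus coding log2 ratio of the same gene on each array for the 7 factor genes with both features measured on all arrays, with the mean as a line. Sak1 stands highest at 2.22, and 4 genes lie above 0 on all 3 arrays.

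On replicate 2, where 34 genes had both features, the upstream one was higher in 23 genes or 67.6%, against 62.3% of 4380 genes. The median difference was 0.35, against 0.20. It ranged from -0.37 for moc3 to 1.93 for rsv2. With that array unturned, the upstream feature was higher in 11 of the 34 and the median difference was -0.35. This is 1 array and has no replicate check.

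The study made binding lists by ranking ratios within each array and keeping features with a median percentile above 85. Applied here, 9 of 73 ranked member features were listed, against 11.1% of 9856 features. Of the upstream ones it was 7 of 34 (20.6%), against 17.0% of intergenic features, and of the coding ones 2 of 39 (5.13%), against 5.14%. The upstream feature of rsv2 stood at a median percentile of 97.6, followed by those of sak1 (94.9), atf21 (94.9), toe1 (94.8), fkh2 (89.1), klf1 (85.9) and toe3 (85.7). The coding features were those of toe1 (95.3) and atf21 (90.4). Those of fkh2 upstream and toe1 coding were ranked on 1 array only. Above a median percentile of 95 lay 2 member features, rsv2 upstream and toe1 coding, against 3.22% of all ranked features. On the unturned arrays 7 of the 73 were listed, against 9.98%, of which 2 were among the 9.

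A list of 30 other transcription factor genes was set beside the members by counts. Of its 13 upstream features measured on all arrays 3 were enriched: prr1, for an oxidative stress factor (mean 2.02 ± 0.38, SD, n = 3, limma adjusted p = 0.00275), cbf12, for a CSL-family factor (1.96 ± 0.43, limma adjusted p = 0.00346), and gsf1, a flocculation regulator (1.63 ± 0.53, limma adjusted p = 0.00986). Each of these 3 had a value from 1 spot on 1 array, replicate 3 for prr1 and cbf12 and replicate 1 for gsf1. On replicate 3 the prr1 immunoprecipitate gave 3552 units, below the control limit of 4452 units, against 520 units of input. The median of the 13 means was 0.65. Of its 18 coding features 0 were enriched and 2 depleted. These counts, 3 of 13 and 3 of 11 for the members, were not tested against each other.

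Motif matches were counted in promoters from 250 bases before to 50 after the transcript start, on both strands. TGACGT was found in 1 of the 40 members (2.5%), rsv2, against 5.91% of 5112 promoters, and the palindrome TGACGTCA, searched after the rsv2 sequence was seen, in 14 promoters (0.274%). ACGCGT, the MluI cell cycle box read by MBF, matched 2 members, yox1 and tos4, against 3.25% of all. TTCTTTG matched 8 members (20%), ste11 and sak1 among them, against 9.94%. GTAAACA, the FLEX box read by forkhead factors, matched 4 (10%) against 16.5%, AGGGG, a stress response element, 4 against 10.4%, and GATAA 25 (62.5%) against 59.5%. Matches to TGACGTCA are also matches to TGACGT, which lies within it. A match describes these letters and is no evidence of a site.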

How the data were processed

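Chromatin precipitated from Ssn6-GFP cells and input chromatin were hybridised together on 3 two-colour arrays of intergenic and coding features. Per the file headers and the labels, the deposited scanner files hold whole-number spot intensity for channels A and B from TIGR Spotfinder, with local background and flags. The authors' series table holds deposited log10 values, per the labels median-normalised in GeneSpring, which tracked 1 channel on each array. The software version, and whether background had been subtracted, were not given in the sources used here.

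Log2 ratios were computed from integrated intensity without background subtraction. Spots without positive intensity in both channels were left out, ratios were centred on each array's median, and spots of a feature were averaged. R 4.3.3 and limma 3.58.1 gave a two-sided test of each mean against 0, by lmFit and then eBayes, for the 3960 features with a ratio on every array. P-values were adjusted over them by Benjamini-Hochberg. The limma step was also run on data simulated from its own fitted spread, without missing spots and with a known direction. That run is no check of the orientation, the input signal or the missing ratios. The number of arrays limits the precision. Names were matched by symbol, synonym and systematic name through RefSeq ASM294v3, 39 of 40 genes matching. All members are accounted for: per-array values are given for called features, the 5 highest and 5 lowest, and upstream features above the 95th percentile, and other members or neighbours named with values were chosen after these were seen. The members and lists were chosen with earlier results of these data known, as was the turned replicate 2. Alternatives were other orientations, normalisations, backgrounds, spot summaries, filters and the leaving out of each array.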

Additional observations from a re-analysis of the deposited data

How the results depend on the processing

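The counts of called features changed with the orientation, the background and the arrays kept. With replicate 2 unturned, so that channel B is over channel A throughout, 0 upstream and 0 coding members were called. Local background subtraction gave 1 and 1, against 3 and 4. Leaving out 1 replicate gave 2 to 3 enriched upstream features, 1 to 8 called coding features, 8 to 9 features on the rank list and an upstream minus coding difference of 0.71 to 1.34. That difference was 1.59 with normexp and 0.44 with the classes centred separately, against 1.02. With the 95th percentile in place of the 85th the rank list held 2 member features. Shares of all features called are not given here for background subtraction or with 1 replicate left out, so those counts describe the members alone. Over the settings that give a ratio, the 7 called features kept direction and call in 56 of 75 alternatives and direction alone in 19. The 75 leave out the settings in which toe1 upstream had no value on every array and so no call. These were local background subtraction and the leaving out of spots in the lowest 10% of the input channel. The cause of the changes in counts and calls was not tested. The deposited table follows the level of 1 channel, so it is no other processing of the ratio and tests no enrichment or depletion: there 0 upstream and 0 coding members were called, the upstream minus coding difference was 0.43 and the ntu1 coding feature stood at 0.95. No paired analysis was possible because the series has no second group; the ratio itself sets immunoprecipitate against input within each array. Upstream features lack ratios mostly on replicates 1 and 3, which limits what the 11 tested features can show of the 40 genes.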
